A study of Danio rerio with 3 samples.

Results

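The genes described here encode the apolipoproteins and the lipid transfer protein with which the yolk syncytial layer of the zebrafish embryo builds and loads lipoproteins. They were chosen by name in the deposited gene count table. The 10 members are apoa1a, apoa1b, apoa2, apoa4b.1, apobb.1, apoba, apoea, apoeb, apoc2 and mttp, each 1 row of a table of 32520 genes. RNA of whole embryos of the Tubingen strain at 36 hpf was sequenced in 3 libraries, which the labels name HO (setd2-/-), HE (setd2+/-) and WT (wild type), with 1 library per genotype. The study describes the embryos as littermates of mutant lines made by CRISPR/Cas9, and setd2 encodes the enzyme that trimethylates lysine 36 of histone H3. Which of the study's mutant lines was sequenced is not written in the labels, the study using a frame-shift line, E3fs1, where it names none, and the number of embryos in a library is not given. Because each genotype has 1 library, no test between genotypes was possible, and every interval given covers counting error only.

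The yolk syncytial layer is a nucleated layer between the yolk and the embryo proper. It takes up yolk lipid, packs it into lipoproteins and releases them into the circulation, so that it does the work that liver and intestine take over later. ApoB is the backbone of these particles, and microsomal triglyceride transfer protein, encoded by mttp, loads it with lipid. ApoA-I, ApoA-II and ApoA-IV are exchangeable apolipoproteins of high-density and triglyceride-rich particles, ApoE is a ligand of lipoprotein receptors, and ApoC-II activates lipoprotein lipase.

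Library totals were 14160325 counts for HO, 12760683 for HE and 13340950 for WT. After TMM scaling in edgeR, differences were expressed as log2 ratios of CPM, the counts relative to the scaled total, and a prior count of 2 was added. All 10 members passed a filter of 10 counts on average, which left 18966 tested genes. Those other than mttp, 9 in number, also belonged to the 2502 genes that averaged 1000 counts or more, called abundant genes here. The targeted gene setd2 had 2087 counts in the library labelled HO, 1380 in the library labelled HE and 1348 in the library labelled WT. It was thus highest in the library labelled HO. A frame-shift allele whose mRNA is removed by nonsense-mediated decay would put setd2 lowest in homozygotes, so that with such an allele the gene goes against the label HO, whereas with an allele whose mRNA persists its counts check nothing. By RT-qPCR at a later age, the study reports a strong decrease of setd2 mRNA in homozygotes of its line E3fs1. It reports no change in a line with a frame-shift near the C-terminal end. If E3fs1 was sequenced, the counts of setd2 differ in direction from that result. The direction of every difference given below rests on the labels. Whole embryos hold many tissues, so that fewer cells of a type and less RNA per cell cannot be told apart in these values.

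The tissue named for these genes was checked with markers. Of 12 symbols listed for the yolk syncytial layer, 10 rows of the table passed the filter, among them the transferrin gene tfa with 16898, 14996 and 15949 counts in the libraries labelled HO, HE and WT. The phospholipase gene pla2g12b, which lipoprotein secretion needs in the mouse, had 5079, 4770 and 4959 counts in the same libraries. The list also held genes at or near 0. The early regulator of the layer, mxtx2, had 1 count in the library labelled HO, 3 in the library labelled HE and 0 in the library labelled WT, and the plasma carrier genes gc and ttr had no more than 3 counts in any library. Of 9 hepatocyte symbols, fabp10a had 2, 0 and 1 counts in the libraries labelled HO, HE and WT, whereas most of the others were well counted, such as the fibrinogen gene fga with 2645, 3002 and 2923. Secreted plasma proteins such as fibrinogen and transferrin can come from either tissue, so that these markers do not separate the layer from liver. The summed level of the yolk syncytial layer list was 4508 CPM in the library labelled HO, 4735 in the library labelled HE and 4686 in the library labelled WT. This list shares apoc1 and the rows of afp4 with the list of other apolipoproteins given below. In the libraries labelled HO, HE and WT, apoc1 had 871, 965 and 946 CPM. The more abundant row of afp4 had 859, 881 and 972 CPM, and the other 273, 219 and 249 CPM. The sum is therefore not a measure of the tissue separate from the lipoprotein genes.

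Of the 10 members, 6, 5 and 5 were among the 100 genes with the most counts in the libraries labelled HO, HE and WT, whereas mttp ranked 5066, 4810 and 4733. Together the members held 355373 counts in the library labelled HO, 2.51% of its total (exact Clopper-Pearson 95% interval 2.50 to 2.52). They held 280114 counts in the library labelled HE, 2.20% (2.19 to 2.20), and 320563 in the library labelled WT, 2.40% (2.39 to 2.41). Most of this spread lay in apobb.1, since the other 9 members held 1.62%, 1.57% and 1.64% of the counts in the libraries labelled HO, HE and WT. By counts, apobb.1 ranked 5 in the library labelled HO and 6 in each of the others. By FPKM, which divides by exonic length, apoa1a led the members and ranked 5, 5 and 4 among all genes of the libraries labelled HO, HE and WT.

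Between genes, levels were compared as FPKM, with the exonic lengths of the deposited table. In the library labelled WT the order was apoa1a (5472 FPKM), apoa2 (2012), apoa1b (1050), apoeb (1003), apobb.1 (591), apoea (311), apoa4b.1 (289), apoc2 (84.8), apoba (75.6) and mttp (7.87). The gene mttp therefore stood far below all the apolipoprotein members, among them apobb.1 and apoba, whose product it helps to load with lipid. The order changed at a few neighbours. In the library labelled HE, apoa4b.1 (250 FPKM) was above apoea (182), and apoa1b (1017, counting interval 1009 to 1026) and apoeb (1006, 994 to 1018) did not differ beyond counting error. In the library labelled HO, apoba (81.8 FPKM) was above apoc2 (64.2). The exonic length listed for apoa1b, 4200 bases, is 4.31 times that of its paralogue apoa1a, so that these paralogues differ more in FPKM than in counts. By counts, apoa1b (58851) was above apoa2 (27375) in the library labelled WT. The length listed for apoc2 is 5467 bases, beside 783 for apoc1. In the library labelled WT, apoc1 exceeded apoc2 2.05-fold by counts and 14.3-fold by FPKM. The order by FPKM thus depends on the listed lengths.

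**Figure D1:**
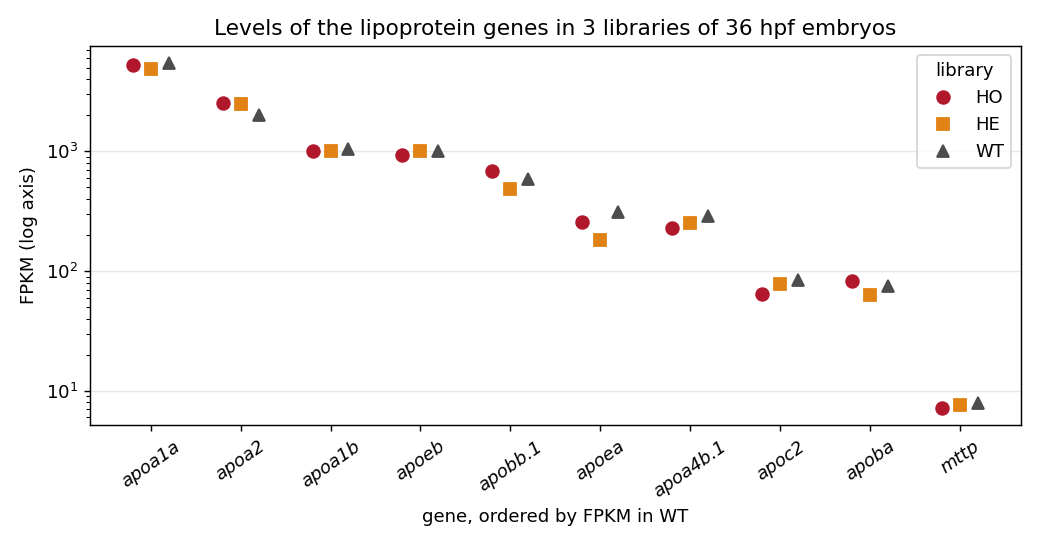
FPKM (log axis) of the 10 lipoprotein genes in the libraries labelled HO, HE and WT, 1 point per library, ordered by the level in the library labelled WT. Levels run between 5472 FPKM for apoa1a and 7.87 FPKM for mttp in the library labelled WT, and the 3 libraries lie farthest apart for apoea.

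The structural protein came first. The main ApoB gene, apobb.1 (ENSDARG00000022767), with an exonic length of 12857 bases, had 125312 counts in the library labelled HO, 79342 in the library labelled HE and 101435 in the library labelled WT. The second ApoB gene, apoba (ENSDARG00000042780, 13486 bases), had 15627, 10788 and 13594 counts in the same libraries. Both genes were highest in the library labelled HO and lowest in the library labelled HE. For apobb.1 the log2 ratio was 0.22 for HO against WT (95% interval for counting error 0.21 to 0.24), −0.27 for HE against WT (−0.28 to −0.26) and 0.49 for HO against HE (0.48 to 0.51). For apoba the corresponding ratios were 0.12 (0.088 to 0.15), −0.25 (−0.28 to −0.21) and 0.37 (0.33 to 0.40). The balance between the paralogues moved little, with apoba making up 11.1% of the counts of the pair in the library labelled HO (10.9 to 11.3), 12.0% in the library labelled HE (11.8 to 12.2) and 11.8% in the library labelled WT (11.6 to 12.0). A copy that is not a member, apobb.2, had 3854, 2553 and 3110 counts in the libraries labelled HO, HE and WT, in the same order as apobb.1.

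These genes are among the longest in the set, and long genes in general took the same direction. Of the 2502 abundant genes, 104 had an exonic length of at least 10000 bases, a limit chosen after the values were seen. Their median log2 ratio was 0.095 for HO against WT, −0.17 for HE against WT and 0.27 for HO against HE. Without apobb.1 and apoba, the medians of the remaining 102 were 0.090, −0.17 and 0.26. The medians of the 2398 shorter genes were 0.016, 0.029 and −0.019. Among the long genes, with apobb.1 itself counted, 10 were at or above apobb.1 for HO against WT and 6 for HO against HE. For HE against WT, 26 were at or below it, again with itself counted. With the median of genes of similar length subtracted, the ratio of apobb.1 was 0.17 for HO against WT, −0.14 for HE against WT and 0.31 for HO against HE, and that of apoba was 0.062, −0.12 and 0.19. The part of gene length in these differences was not tested further.

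**Figure D2:**
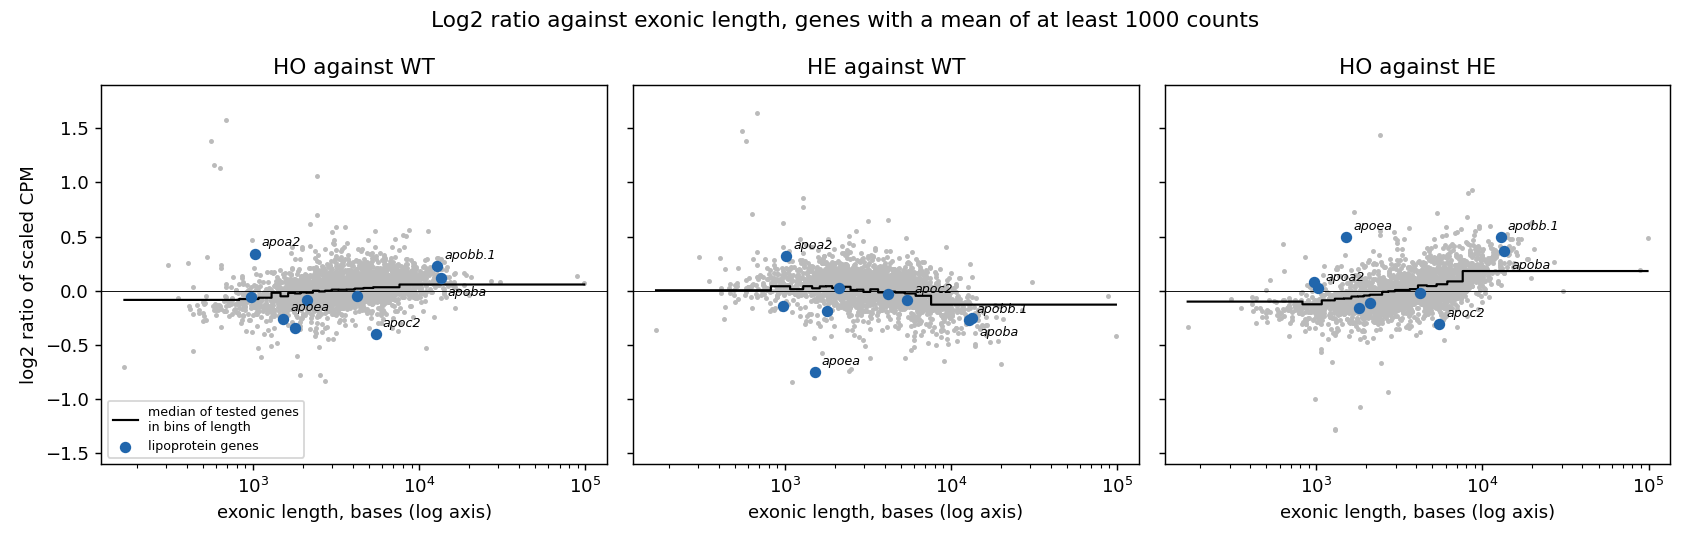
Log2 ratio of scaled CPM against exonic length in bases (log axis) for the 2502 abundant genes (grey, averaging 1000 counts or more), with 9 lipoprotein genes in blue and the median of tested genes in 20 bins of length as a black line. Genes of at least 10000 bases, apobb.1 and apoba included, lie mostly above 0 for HO against HE (median 0.27) and below 0 for HE against WT (median −0.17).

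The partner of ApoB in particle assembly, mttp (ENSDARG00000008637), had 502 counts in the library labelled HO, 471 in the library labelled HE and 515 in the library labelled WT. Its log2 ratio was −0.12 for HO against WT (−0.30 to 0.063), −0.043 for HE against WT (−0.23 to 0.14) and −0.073 for HO against HE (−0.26 to 0.11). No difference of mttp was detectable at this depth. The intervals are wide next to those of the apolipoprotein genes because mttp had the fewest counts of the members.

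Of the members, apoa1b differed least. The gene apoa1a (ENSDARG00000012076) had 72465 counts in the library labelled HO, 60946 in the library labelled HE and 71101 in the library labelled WT, and apoa1b (ENSDARG00000101324) had 60315, 54532 and 58851. The log2 ratio of apoa1a was −0.053 for HO against WT (−0.068 to −0.038), −0.14 for HE against WT (−0.15 to −0.12) and 0.084 for HO against HE (0.069 to 0.10). That of apoa1b was −0.045 (−0.061 to −0.028), −0.025 (−0.042 to −0.0079) and −0.020 (−0.037 to −0.0033) in the same comparisons. At this depth even such small ratios exceed counting error. With the median of genes of similar length subtracted, apoa1a changed sign for HO against WT, to 0.023.

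The gene apoa2 (ENSDARG00000015866) set the library labelled WT apart. It had 36697 counts in the library labelled HO, 32147 in the library labelled HE and 27375 in the library labelled WT. The log2 ratio was 0.34 for HO against WT (0.32 to 0.37), 0.32 for HE against WT (0.29 to 0.34) and 0.026 for HO against HE (0.0039 to 0.047). In HO against WT, 98.2% of the 2502 abundant genes had a lower ratio, and in HE against WT it ranked 50 from the top. The ratios to WT share the same WT library, so that they are not independent. With the median of genes of similar length subtracted, the ratio of apoa2 was 0.42 for HO against WT, 0.27 for HE against WT and 0.15 for HO against HE. After this subtraction HO and HE were thus no longer nearly equal. Relative to apoa1a, apoa2 took 33.6% of the counts of the pair in the library labelled HO (33.3 to 33.9), 34.5% in the library labelled HE (34.2 to 34.8) and 27.8% in the library labelled WT (27.5 to 28.1).

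The ApoA-IV gene apoa4b.1 (ENSDARG00000040298) ran the other way, with 5774 counts in the library labelled HO, 5729 in the library labelled HE and 6921 in the library labelled WT. Its log2 ratio was −0.34 for HO against WT (−0.39 to −0.29), −0.19 for HE against WT (−0.24 to −0.14) and −0.15 for HO against HE (−0.21 to −0.10). Its CPM was lowest in the library labelled HO. Its paralogue apoa4b.2, not a member, had 1166, 885 and 1680 counts in the libraries labelled HO, HE and WT. The log2 ratio of apoa4b.2 was −0.61 for HO against WT (−0.72 to −0.50) and −0.84 for HE against WT (−0.96 to −0.72), the lowest HE against WT value of the 2502 abundant genes.

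The ApoE genes gave the largest single difference among the members. The gene apoea (ENSDARG00000102004) had 5558 counts in the library labelled HO, 3519 in the library labelled HE and 6277 in the library labelled WT. The library labelled HE was the low one, at 278 CPM against 392 CPM in the library labelled HO and 468 CPM in the library labelled WT. The log2 ratio was −0.26 for HO against WT (−0.31 to −0.20), −0.75 for HE against WT (−0.81 to −0.69) and 0.49 for HO against HE (0.43 to 0.56). Only apoa4b.2 was lower than apoea for HE against WT among the abundant genes. With an exonic length of 1513 bases apoea is not a long gene, and its HE against WT ratio was −0.77 with the median of genes of similar length subtracted.

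The other ApoE gene, apoeb (ENSDARG00000040295), which macrophages and microglia of the zebrafish also express, did not share this. It had 28152 counts in the library labelled HO, 27155 in the library labelled HE and 28307 in the library labelled WT, with log2 ratios of −0.088 for HO against WT (−0.11 to −0.064), 0.025 for HE against WT (0.0013 to 0.049) and −0.11 for HO against HE (−0.14 to −0.089). The share of apoea in the counts of the pair, which does not depend on the scaling of the libraries, was 16.5% in the library labelled HO (16.1 to 16.9), 11.5% in the library labelled HE (11.1 to 11.8) and 18.2% in the library labelled WT (17.7 to 18.6). The ApoA-IV pair was ordered alike, with apoa4b.2 at 16.8% of the counts of apoa4b.1 and apoa4b.2 in the library labelled HO (15.9 to 17.7), 13.4% in the library labelled HE (12.6 to 14.2) and 19.5% in the library labelled WT (18.7 to 20.4).

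**Figure D3:**
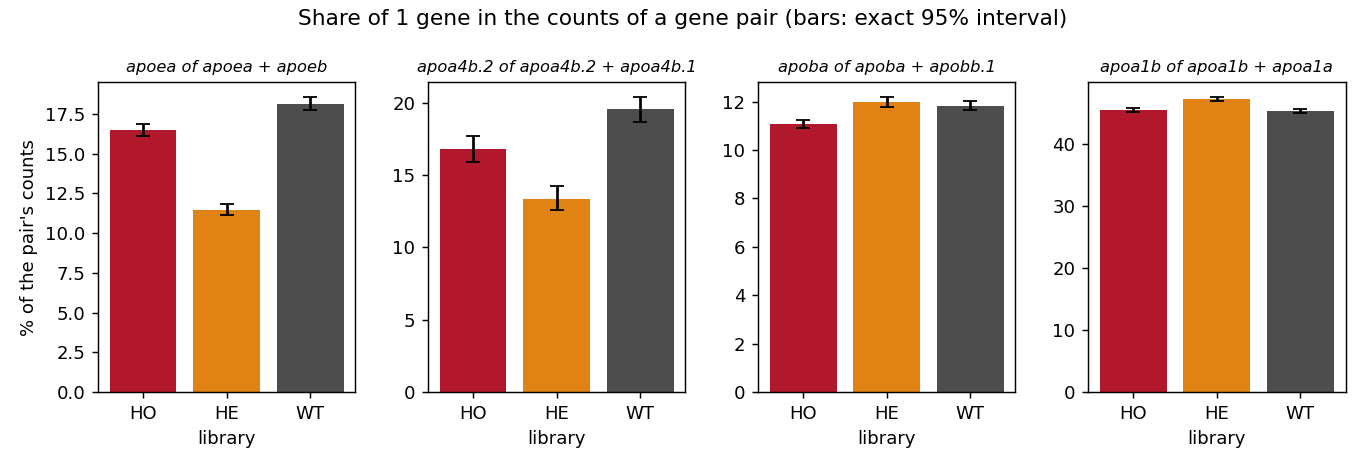
Share of 1 gene in the counts of a gene pair (%) in the libraries labelled HO, HE and WT, with exact 95% intervals for counting error. The shares of apoea (16.5%, 11.5% and 18.2%) and apoa4b.2 (16.8%, 13.4% and 19.5%) are lowest in the library labelled HE, whereas apoba lies between 11.1% and 12.0%.

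The lipase activator gene apoc2 (ENSDARG00000092155) had 4971 counts in the library labelled HO, 5485 in the library labelled HE and 6187 in the library labelled WT. Its log2 ratio was −0.40 for HO against WT (−0.45 to −0.34), −0.088 for HE against WT (−0.14 to −0.036) and −0.31 for HO against HE (−0.36 to −0.25). It was the lowest of the members for HO against WT, where 0.639% of the abundant genes had a lower ratio. Its exonic length is listed as 5467 bases, and the subtraction of genes of similar length gave −0.43. The gene apoc1 of the same cluster, also an apolipoprotein gene and not a member, had 12363, 12216 and 12699 counts in the libraries labelled HO, HE and WT, and apoc2 took 28.7%, 31.0% and 32.8% of the counts of this pair.

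Across the 10 members, the median log2 ratio was −0.070 for HO against WT, with 3 members higher and 7 lower, and the median of all tested genes was −0.0028. For HE against WT it was −0.11, with 2 higher and 8 lower, beside a median of 0.00084 over all tested genes. For HO against HE it was 0.0028, with 5 higher and 5 lower, beside −0.0020. The members thus did not move as a block. Their full range was widest for HE against WT, between −0.75 for apoea and 0.32 for apoa2. Without the lowest and the highest member, the range was narrowest there, between −0.27 and 0.025. It was −0.34 to 0.22 for HO against WT and −0.15 to 0.49 for HO against HE.

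At a log2 ratio of 0.5 or more in either direction, 0 members were past the limit for HO against WT. Over the 18966 tested genes the shares past it were 5.10% higher and 6.70% lower, and over the 2502 abundant genes 0.600% and 0.440%. For HE against WT, apoea was the 1 member past the limit, and it was lower. There 5.26% of all tested genes were past it as higher and 8.41% as lower, and 0.440% and 0.520% of the abundant genes. For HO against HE, 0 members were past the limit, with apobb.1 and apoea just short of it at 0.49, beside 7.85% higher and 6.51% lower over all tested genes and 0.959% and 0.360% over the abundant genes. With scaling by total counts, both of these genes passed the limit.

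With TMM scaling, counting error was exceeded by all 9 abundant members in each comparison. For HO against WT, 3 were higher and 6 lower, for HE against WT 2 and 7, and for HO against HE 5 and 4. Among the 2502 abundant genes, 28.3% were higher and 21.0% lower beyond counting error for HO against WT, 29.3% and 18.9% for HE against WT, and 26.9% and 30.0% for HO against HE. Differences beyond counting error were thus common at this depth, and they compare libraries, not genotypes. Whether a ratio exceeds counting error depends on depth. These 9 members averaged 5118 counts or more, and no share was taken over genes of their depth. The ratios are better read against the spread of abundant genes, of which 9 in 10 lay between −0.20 and 0.24 for HO against WT, −0.23 and 0.24 for HE against WT, and −0.25 and 0.31 for HO against HE. Outside these ranges were apoa2, apoa4b.1, apoea and apoc2 for HO against WT, apoa2, apobb.1, apoba and apoea for HE against WT, and apobb.1, apoba, apoea and apoc2 for HO against HE. With the median of genes of similar length subtracted, apobb.1 (−0.14) and apoba (−0.12) lay inside the same range for HE against WT and apoba (0.19) inside that for HO against HE, where apobb.1 (0.31) lay at its upper end. The ranges themselves were taken without this subtraction, so that adjusted ratios are set beside unadjusted ones there. The bin of length that holds apobb.1 and apoba also held shorter genes.

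**Figure D4:**
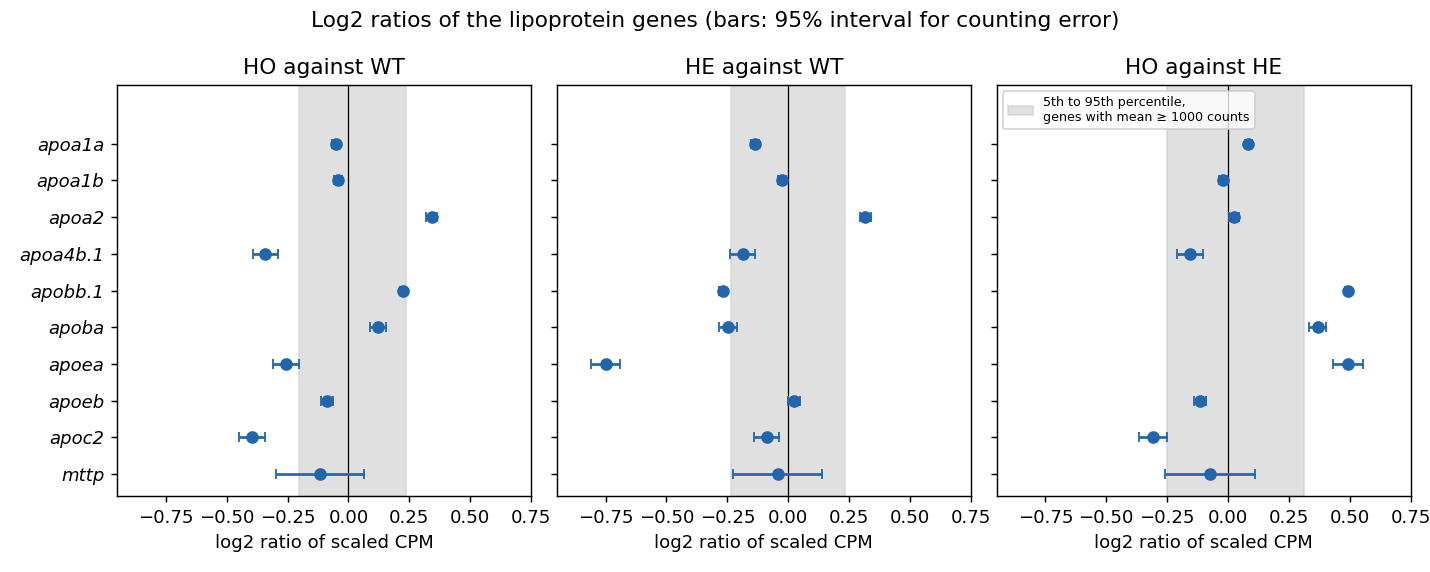
Log2 ratio of scaled CPM of each member for HO against WT, HE against WT and HO against HE, with 95% intervals for counting error as bars and, in grey, the range between the 5th and 95th percentile of the 2502 abundant genes. The gene apoea lies farthest from 0, at −0.75 for HE against WT, and apoa2 lies to the right of the grey range in both comparisons with WT (0.34 and 0.32).

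Several members are neighbours in the genome. In the RefSeq annotation of GRCz12tu, an assembly other than that of the counts, 4 of the 10 members lie on the chromosome that carries setd2. These are apoa4b.1, apoeb, apoa2 and apoc2, in a cluster in which apoa4b.2, apoeb, apoc1, apoc4, apoa2 and apoc2 follow each other directly among protein-coding genes. Between setd2 and the members of this cluster lie 151 to 160 protein-coding genes. The ratios for HO against WT within the cluster ran between −0.40 for apoc2 and 0.34 for its neighbour apoa2. A difference between the haplotypes that carry the mutant and the wild-type setd2 cannot be told apart from the genotype for these 4 genes. The same limit holds for the other genes of the cluster, apoa4b.2 and apoc1 among them. It also holds for the shares of pairs that include a gene of the cluster. Outside this chromosome, apoea lies next to the ApoA-IV gene apoa4a, which had 996 counts in the library labelled HO, 614 in the library labelled HE and 1033 in the library labelled WT, with a log2 ratio of −0.66 for HE against WT (−0.81 to −0.52).

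The other genes of the pathway were taken from 5 lists. The numbers past 0.5 in each list stand beside the shares over all tested genes. These were 5.10% higher and 6.70% lower for HO against WT, and 5.26% and 8.41% for HE against WT. Of 14 symbols for other apolipoproteins, 11 rows were tested, and their median log2 ratio was −0.16 for HO against WT, with 0 genes past 0.5 as higher and 2 as lower, apoa4b.2 and the sparsely counted apoda.2 (9, 6 and 19 counts in the libraries labelled HO, HE and WT). For HE against WT the median was −0.14, with 0 past 0.5 as higher and 3 as lower, where apoa4a was the third. The most abundant genes of this list were apoc1, with a log2 ratio of −0.12 for HO against WT (−0.15 to −0.083), and the row of afp4 (ENSDARG00000095863), a gene of the type IV antifreeze protein family, with −0.18 (−0.21 to −0.14). The table holds 2 rows with the symbol afp4.

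Lipoprotein assembly and secretion was represented by 23 tested genes, with a median of −0.083 for HO against WT, 2 genes past 0.5 as higher and 3 as lower, and a median of 0.0048 for HE against WT, with 1 higher and 0 lower. The most abundant, pla2g12b, had a log2 ratio of −0.046 for HO against WT (−0.10 to 0.011), and p4hb, which encodes the other subunit of the triglyceride transfer complex, one of −0.16 (−0.23 to −0.096). Past 0.5 as higher were sar1ab, for a GTPase of vesicle export, with 650, 527 and 430 counts in the libraries labelled HO, HE and WT, and creb3l3b, for a transcription factor of lipoprotein genes, with 123, 56 and 67. Their relatives in the list were not past 0.5. For HO against WT, sar1b (915, 790 and 932 counts) had a log2 ratio of −0.11 (−0.24 to 0.026). That of creb3l3l (916, 773 and 856 counts) was 0.018 (−0.12 to 0.15), and that of creb3l3a 0.23 (−0.20 to 0.67). Past 0.5 as lower for HO against WT were dgat1b, soat2 and cideb, genes of triglyceride synthesis, cholesterol esterification and lipid droplets. They had 64, 41 and 40 counts in the library labelled HO, 83, 80 and 56 in the library labelled HE and 95, 59 and 71 in the library labelled WT. These genes had few counts, and the HO against WT intervals of dgat1b (−1.13 to −0.18), soat2 (−1.22 to −0.0060) and cideb (−1.50 to −0.33) are wide. The gene past 0.5 as higher for HE against WT was soat2, at 0.51 (0.021 to 1.04).

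Receptors, lipases and lipid exchange gave 19 tested genes with a median of −0.027 for HO against WT, 1 past 0.5 as higher and 1 as lower, and of −0.082 for HE against WT, with 0 higher and 1 lower. The cholesterol exporter gene abca1b, the most abundant of them, had 4504 counts in the library labelled HO, 3012 in the library labelled HE and 4341 in the library labelled WT, a log2 ratio of −0.44 for HE against WT (−0.51 to −0.37). The receptor gene lrp1ab had 1861, 1428 and 1745 counts in the same libraries. Like the ApoB genes, both were lowest in the library labelled HE and both are long, at 9432 bases for abca1b and 14024 for lrp1ab. With the median of genes of similar length subtracted, the HE against WT ratio was −0.31 for abca1b and −0.077 for lrp1ab. The gene past 0.5 as lower for HO against WT was cetp, for cholesteryl ester transfer protein, with 143, 201 and 193 counts, and the one past it as higher, ldlra, had fewer than 50 counts in each library.

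Fatty acid uptake, binding and lipid droplets gave 16 tested genes with a median of −0.088 for HO against WT, 0 past 0.5 as higher and 1 as lower, and of −0.11 for HE against WT, with 0 higher and 1 lower. The lower gene was in both cases plin6, for a perilipin, with 97, 80 and 140 counts in the libraries labelled HO, HE and WT. The fatty acid binding protein gene fabp1b.1 had 8736, 7759 and 8862 counts, and the transporter gene slc27a2a had 3138, 2429 and 2192, with a log2 ratio of 0.44 for HO against WT (0.36 to 0.52).

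Among regulators of lipoprotein genes, 22 were tested. Their median was 0.054 for HO against WT, with 17 genes higher and 5 lower, of which 3 were past 0.5 as higher and 1 as lower. Beyond counting error, 3 of the 22 were higher and 1 lower in this comparison, and the others lay within it. The median of all tested genes was −0.0028 there. No share of higher or lower genes, with or without counting error, was taken over all tested genes. The split of the regulators therefore has no such share beside it and is not read as a result. For HE against WT the median was 0.042, with 13 higher and 9 lower, of which 0 were past 0.5 as higher and 2, gata4 and hnf1bb, as lower. Past 0.5 as higher for HO against WT was foxa3, for a forkhead factor of endoderm, with 214, 159 and 138 counts in the libraries labelled HO, HE and WT. Past 0.5 as lower was hnf1bb, with 25, 28 and 47 counts, under 50 in each library and named after its values were seen. The most abundant was the orphan receptor gene nr0b2a, with 1253, 809 and 978 counts and a log2 ratio of 0.28 for HO against WT (0.16 to 0.40). The main regulator of the apolipoprotein genes in liver, hnf4a, had 114, 101 and 105 counts.

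**Figure D5:**
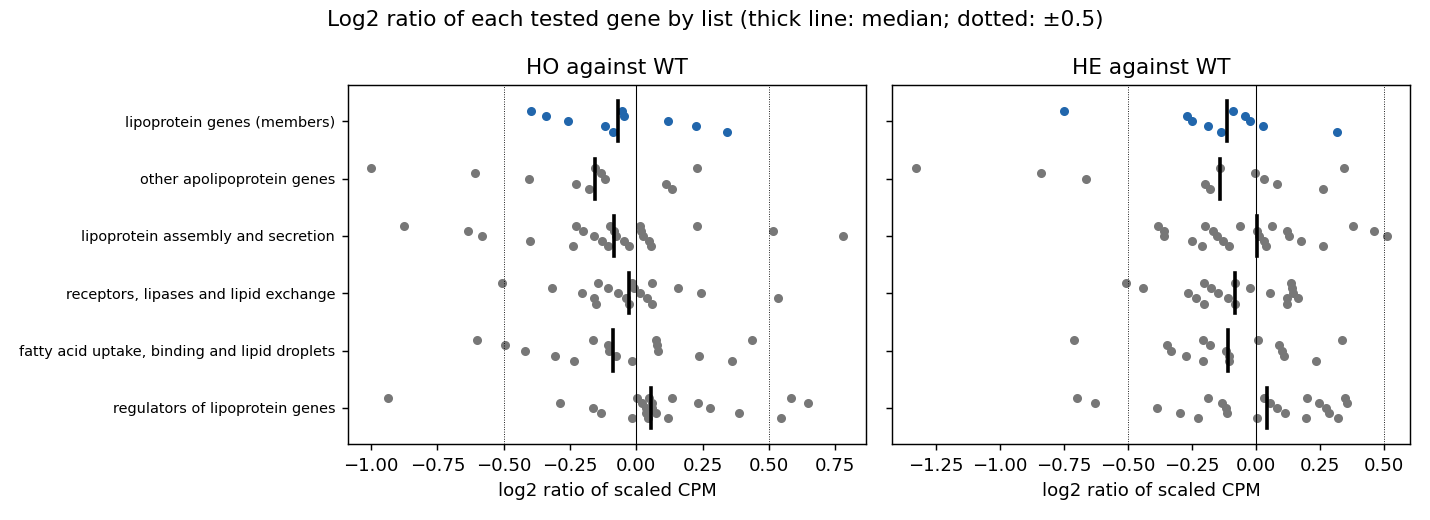
Log2 ratio of scaled CPM of each tested gene for HO against WT and HE against WT, for the 10 members (blue) and 5 lists of other lipoprotein and lipid genes (grey), with the median as a thick line and ±0.5 dotted. List medians lie between −0.16 and 0.054 for HO against WT, and the single genes past 0.5 differ between lists.

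Markers of other cell types were read beside these values. The summed level of 9 hepatocyte symbols was 708 CPM in the library labelled HO, 739 in the library labelled HE and 723 in the library labelled WT, that of 5 intestine symbols was 178, 156 and 187 CPM, and that of 7 macrophage symbols was 45.5, 44.9 and 43.7 CPM. The periderm list, led by krt4, summed to 13552, 14313 and 12489 CPM and was lowest in the library labelled WT. In the hepatocyte list the copper carrier gene cp had 2067 counts in the library labelled HO, 1234 in the library labelled HE and 1295 in the library labelled WT, whereas fga and fgg were lower in the library labelled HO than in the library labelled WT. The part of these cell types in the differences of the lipoprotein genes was not tested.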

How the data were processed

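RNA of whole 36 hpf embryos was sequenced in 3 libraries, 1 per genotype. The authors deposited raw read counts per gene and FPKM values for 32520 genes in a table of the series, from which all values were taken. The paper names Tophat, Cufflink (for FPKM) and GRCz10, whereas the submitters' processing notes name HISAT2 2.0.2 and GRCz11. A stranded mRNA kit is given in the paper but different library kits in the labels. The counting tool and its strand setting are not given in the sources used here, and overlapping or near-identical genes may share reads. The deposited FPKM equal counts divided by exonic length and library total, with a largest difference of 0.00500. No column of the table was left out, and the tables of single libraries were not used.

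Counts were scaled by TMM (edgeR 4.0.16, R 4.3.3) over genes averaging 10 counts or more. Intervals of 95% for shares are exact, and those of log2 ratios come from the exact binomial share of 2 counts. Ratios have a prior count of 2. Length was treated in 20 bins. Members, lists and limits were chosen with earlier results of these data known. The named genes are the members, setd2, the 2 most abundant genes of each list and those with at least 50 counts in a library and a log2 ratio past 0.5 for HO against WT. The genes apoa4a, apobb.2, apoda.2, ldlra, mxtx2, gc, ttr, fabp10a, hnf4a, hnf1bb, gata4 and apoc4 and the limit for long genes were chosen after values were seen. The same holds for sar1b, creb3l3a and creb3l3l. A gene that this rule names is not reported here. Alternatives were DESeq2 1.42.0 size factors, total counts, a prior count of 0.25, the deposited FPKM (pseudocounts 1 and 0.1), a filter at 100 counts or none, removal of the length trend and totals without the members. Steps were tested on simulated counts that held only counting error and large changes set in HO, without a length trend. That test does not bear on the differences given here. Python 3.11.15 and scipy 1.17.1 were used.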

Additional observations from a re-analysis of the deposited data

How the results depend on the processing

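Over the 9 alternatives the median log2 ratio of the members ran between −0.078 and −0.068 for HO against WT and between −0.13 and −0.093 for HE against WT. For HO against HE it ran between −0.0046 with no filter and 0.039 with the length trend removed. The number of members past counting error as higher for HE against WT was 1 in place of 2 with total counts, with FPKM and a pseudocount of 1 or 0.1, with a minimum mean of 100 counts and with the length trend removed, since apoeb lay near 0. For HO against HE, 5 members were higher and 3 lower beyond counting error with total counts, either FPKM setting or a minimum mean of 100 counts, and 4 and 4 with no filter, in place of 5 and 4. For HO against WT the counts were 4 and 5 with the length trend removed, in place of 3 and 6. The number past 0.5 as higher for HO against HE was 2 in place of 0 with total counts and with either FPKM setting, and 1 with the length trend removed. Removal of the length trend turned apoa1a to 0.023 for HO against WT and apoeb to −3.1e-05 for HE against WT. Of 270 log2 ratios of single members under the alternatives, 240 stayed within their counting interval, 28 left it and 2 changed sign. These are not 270 separate checks. Both FPKM settings nearly repeat the scaling by total counts and take their counting intervals from it, so that their numbers past counting error repeat it by construction. The prior count hardly moves genes of this depth and does not enter the intervals. The largest move was 0.18 with the length trend removed and 0.021 with the other settings. Summed levels were recomputed only where the setting changes the scaling of counts. No paired analysis was possible because each genotype has 1 library, and no library could be left out for the same reason. Depth limits mttp and the list genes with under about 100 counts, whose intervals are wide.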
